A study of Caenorhabditis elegans with 4 samples.

Results

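The centre of chromosome IV of *Caenorhabditis elegans*, from position 7000001 to position 13500000 (WS220 coordinates), held 936 peaks of the heterochromatin protein HPL-2. They were chosen by position alone: a peak of the series-level list belonged to the set when its midpoint lay in this 6.5 Mb span, which separates the stretches of the chromosome that are rich in piRNA genes. The set is 23.2% of the 4033 peaks of chromosome IV, on 37.2% of its length, and 3.98% of the 23530 peaks of the whole list. The peaks come from chromatin immunoprecipitation and sequencing (ChIP-seq) of L3 larvae of the wild-type strain N2, of both sexes (males and hermaphrodites mixed), grown at 20 °C. Both ChIP libraries (n = 2, replicates 1 and 2) used the antibody SDQ2340, a polyclonal serum from rabbit that was affinity-purified and targets HPL-2. The 2 input libraries have no values analysed here, and no mutant or treated group is among the samples. Whole larvae were used, so each peak pools all tissues.

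HPL-2 belongs to the HP1 family, whose chromodomain binds methylated histone H3 and which is found in compacted, mostly silent chromatin. In this worm, silent chromatin and its repeats are concentrated towards the ends of the autosomes, and the central parts carry many widely expressed genes. Chromosome IV differs from the others in that it carries the large clusters of piRNA genes, which encode the small RNAs bound by the Piwi protein PRG-1 in the germ line. The span described here lies between these clusters. Positions relative to genes are not reported, because the only gene table at hand is on the assembly WBcel235 and the peaks are on WS220; for the same reason no DNA sequence of a peak is shown.

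HPL-2 peaks were sparser in this span than in the rest of its chromosome. It held 144.0 series-level peaks per Mb, and the rest of chromosome IV held 281.7, which is 1.96-fold more (log2 ratio of centre to rest -0.97). Replicate 1 had 822 peaks in the span, or 126.5 per Mb, against 248.0 in the rest of the chromosome (log2 ratio -0.97). Replicate 2 had 486 peaks there, or 74.8 per Mb, against 209.6 (log2 ratio -1.49). Both replicates thus had fewer peaks per Mb in the centre, and the gap was larger in replicate 2, where it came to 2.80-fold. The sides of the span were unequal, with 331.7 series-level peaks per Mb to its left and 194.1 to its right. The central parts of the other chromosomes, the middle 1 of 3 equal parts by length, held 171.1 per Mb on III, 160.2 on I, 123.3 on II, 118.0 on V and 87.5 on X, so the chromosome IV centre lay in the middle of their range. The difference between centre and rest was larger than the spread between the replicate ratios (SD 0.36, n = 2). No test was made, since 2 libraries cannot reach a p of 0.05 in an exact test. Nothing in the labels says that the replicates came from separate cultures, so their spread may be technical. Series-level peaks covered 5.42% of the span, replicate 1 peaks 4.70% and replicate 2 peaks 2.20%. By the same measure series-level peaks covered 14.7% of the chromosome left of the span and 8.35% right of it.

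The density was not even within the span, and rose towards its right end. The first 4 Mb held 430 peaks (107.5 per Mb) and the last 2.5 Mb held 506 (202.4 per Mb). The last 2.5 Mb is 38.5% of the length and held 54.1% of the series-level peaks, 54.4% of the replicate 1 peaks and 54.1% of the replicate 2 peaks. The 3 lists therefore gave nearly the same split. The densest 500 kb was the last, from 13000001 to 13500000, with 154 series-level peaks (308 per Mb), 135 replicate 1 peaks and 89 replicate 2 peaks. Without these 500 kb, the rest of the last 2.5 Mb still held 176 peaks per Mb. By contrast, the first 500 kb of the span held 43 peaks, 34 in replicate 1 and 24 in replicate 2.

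Peak density was lower in the 500 kb next to the span than just inside it, on both sides. The 500 kb just left of it held 60 series-level peaks per Mb, fewer than the 86 per Mb of the first 500 kb inside. The 500 kb just right of it held 164 per Mb, again fewer than the 308 of the last 500 kb inside. The second 500 kb out held 122 per Mb on the left and 188 on the right, more than the first on either side. The last peaks left of the bound lay at 6922520 to 6922690 (replicate 2 only) and at 6974593 to 6974866 (both replicates). The first ones inside lay at 7031113 to 7031295 and at 7039544 to 7039750, both found in replicate 1 only, after a stretch of 56.2 kb without a series-level peak. At the right bound the last 2 members, from 13494747 to 13495415 (both replicates) and from 13495726 to 13495917 (replicate 1 only), were followed after 3.98 kb by peaks from 13499901 to 13500545 (both) and from 13501264 to 13501494 (replicate 1 only). The left bound thus lies in a thinly occupied stretch and the right bound in a well occupied one.

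**Figure D1:**
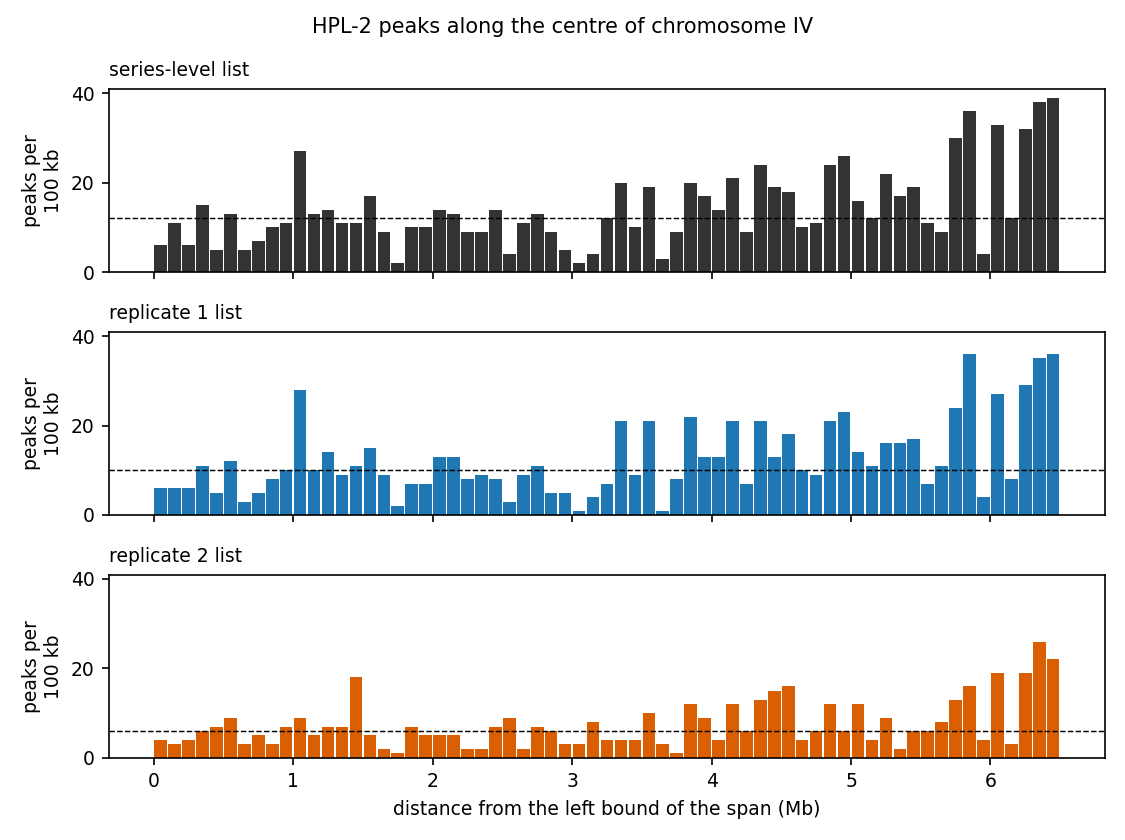
Number of HPL-2 peaks in each of 65 windows of 100 kb along the centre of chromosome IV, against distance from the left bound in Mb, for the series-level list and each replicate list; the dashed line is the median of the list (12, 10 and 6 peaks). The windows with most peaks stand at the right end in all 3 lists, with up to 39, 36 and 26 peaks.

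In windows of 100 kb the number of members ran from 2 to 39, with a median of 12 and the middle 50% of windows between 9 and 19. Replicate 1 ran from 1 to 36 (median 10) and replicate 2 from 1 to 26 (median 6), so no window was empty in any list. Over the 65 windows the replicate counts went together with a Pearson correlation of 0.75 and a Spearman correlation of 0.62, a description only, as neighbouring windows share the rise along the chromosome. The window from 13400001 to 13500000 held most members, 39 beside 36 replicate 1 and 22 replicate 2 peaks. The window from 13300001 to 13400000 followed with 38 members, 35 and 26 replicate peaks, and 20.1% of its bases in peaks. The next was the window from 12800001 to 12900000, with 36 members, 36 replicate 1 peaks and 16 replicate 2 peaks. Of the 14 windows with 20 or more members, 11 lay in the last 2.5 Mb.

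At the other extreme, the windows from 8700001 to 8800000 and from 10000001 to 10100000 held 2 members each, and the window from 10600001 to 10700000 held 3. These thin windows overlap the longest stretches without a peak. The longest ran from 8668166 to 8792600 (124.4 kb) and had no peak of either replicate wholly inside it. The next ran from 10554256 to 10658324 (104.1 kb), again with none in either replicate. The third, from 9998062 to 10084540 (86.5 kb), had no peak of replicate 1 but 2 of replicate 2 inside. In the series-level list 98 stretches of at least 20 kb without a peak made up 52.1% of the span, and with the peaks of all 3 lists combined 85 such stretches made up 43.5%. Absence from a list shows only that no peak passed the caller's threshold, which is unknown.

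A minority of the members were found in both replicates. Of the 936 members, 286 (30.6%, Wilson 95% interval 27.7 to 33.6%) overlapped a peak of both replicate lists, against 43.5% of all series-level peaks. Another 488 (52.1%, against 39.1% of all) were found in replicate 1 only, 56 (5.98%, against 8.16%) in replicate 2 only and 106 (11.3%, against 9.23%) in neither list. Replicate 1 thus supported 774 members (82.7%) and replicate 2 supported 342 (36.5%). The intervals cover counting error only, and are too narrow because neighbouring peaks are not independent.

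The share found in both replicates was lower than on either side of the same chromosome. It was 46.4% of 2322 peaks to the left (interval 44.4 to 48.5%) and 44.0% of 775 peaks to the right (40.5 to 47.5%), and neither interval reaches that of the centre. The central parts of the other chromosomes had shares near that of the centre: 30.1% on V, 28.7% on I, 26.1% on III, 25.5% on X and 24.8% on II. The chromosome IV centre had the highest of these shares, but its interval overlaps those of the other 5 central parts. It is also placed unlike them, and its last 2.5 Mb (33.2% found in both) stood above its first 4 Mb (27.4%). The replicates also differed in the number of peaks called. Replicate 2 had 59.1% as many peaks as replicate 1 in the chromosome IV centre, 84.4% to its left and 84.8% to its right, while in the other central parts it had 61.5% on V, 61.3% on X, 52.4% on I, 49.1% on III and 44.8% on II. These values and the support shares were both higher on the sides of chromosome IV than in any central part, and both were lowest on II. Among the central parts, X is above I and III here and below them there. V is above the chromosome IV centre here and below it there. The part of the number of peaks called in the support shares was not tested.

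**Figure D2:**
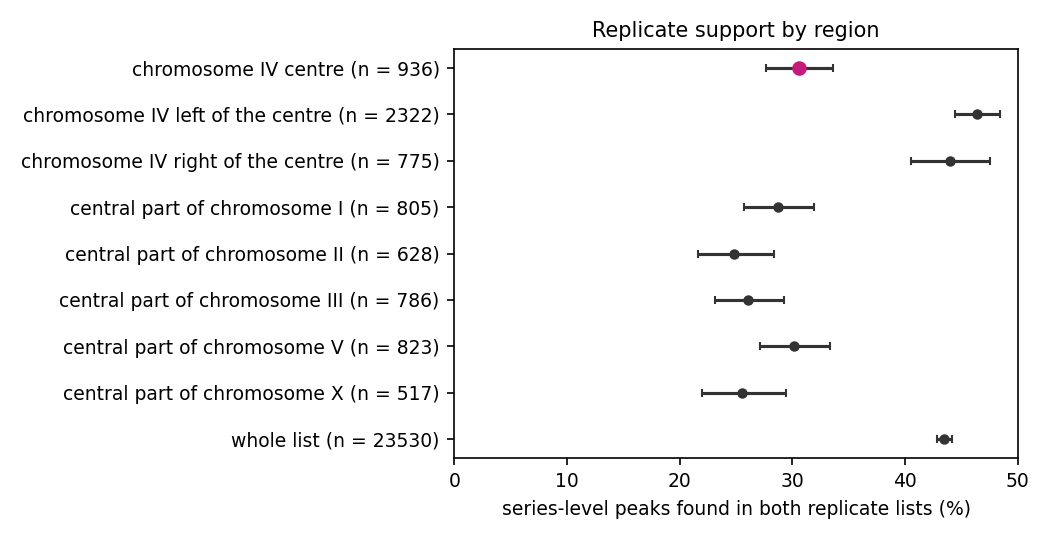
Share of series-level HPL-2 peaks that overlapped a peak of both replicate lists, in percent, for the chromosome IV centre (larger point), the rest of chromosome IV, the central parts of the other chromosomes (the middle 1 of 3 equal parts) and the whole list; points are shares and bars are Wilson 95% intervals. The chromosome IV centre, at 30.6%, lies with the other central parts (24.8 to 30.1%) and below both sides of its own chromosome (46.4% and 44.0%).

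The replicate lists themselves were also compared, which is the same overlap seen from their side. Of the 822 replicate 1 peaks in the span, 297 (36.1%, interval 32.9 to 39.5%) overlapped a replicate 2 peak, against 52.2% over the whole replicate 1 list. Of the 486 replicate 2 peaks, 330 (67.9%, interval 63.6 to 71.9%) overlapped a replicate 1 peak, against 74.1% over the whole list. Both shares were lower in the span than over the lists they came from.

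Support was lower also among peaks of like score rank. The deposited score, whose scale is not stated and which is the authors' own value for each peak, was used to rank peaks within the series-level list. Members had lower scores than the list as a whole, with a median of 11.0 against 13.2. The other central parts had medians near that of the members: 11.5 on I and III, 10.6 on II and X and 9.94 on V. Of the members, 170 (18.2%) were in the top score quartile of the list, against 25% of all peaks. Within that top quartile, 123 of the 170 members were found in both replicates (72.4%, interval 65.2 to 78.5%), against 86.7% (85.8 to 87.6%) of the other peaks of the genome. In the third quartile the shares were 45.3% (38.9 to 51.9%) and 55.0% (53.7 to 56.3%). In the second they were 17.5% (13.3 to 22.6%) and 25.9% (24.8 to 27.1%). In the bottom quartile they were 6.19% and 7.47%, with intervals that overlap. In the upper 3 quartiles the share of members was thus the lower one, with intervals that do not overlap. No test of the differences was made. The other central parts were not compared by score rank, so these values do not show a trait of this span alone. Without ranks, 24.8 to 30.1% of their peaks were found in both replicates.

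Width gave a similar pattern, again beside all other peaks and not beside the other central parts. Among peaks of 200 bp up to 300 bp, 26.9% of 309 members were found in both replicates (interval 22.2 to 32.1%), against 41.3% of the other peaks (40.2 to 42.5%). Among peaks of 500 bp up to 1 kb the shares were 61.9% of 113 members (52.7 to 70.4%) and 78.8% (77.3 to 80.3%). Only among peaks of at least 1 kb, of these 5 width classes, did the intervals overlap, at 92.7% of 55 members (82.7 to 97.1%) and 94.1% (92.8 to 95.1%). A denser replicate list also meets a peak by chance more often. Replicate 2 had 74.8 peaks per Mb in the centre and 209.6 in the rest of the chromosome, and the part of this difference in the shares was not tested.

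Most members were narrow. The median width was 251 bp, with the middle 50% of members between 186 and 379 bp and a full range of 146 to 3350 bp. In the replicate lists, the peaks of the span had a median of 250 bp in replicate 1 and 211 bp in replicate 2 (SD 27.6 bp, n = 2). The whole series-level list had a median of 259 bp, which differs from that of the members by less than this spread. The spread is between the levels of the replicate lists, however, and not between differences of span and list. The whole lists of replicates 1 and 2 had medians of 258 and 231 bp, so the span had the smaller median in each list. Members narrower than 200 bp numbered 290 (30.98%, against 28% of all peaks), and members of at least 1 kb numbered 55 (5.88%, against 6.75%). The share of wide peaks was 8.18% left of the span and 7.10% right of it, and 5.96% and 2.06% among the span's own peaks in replicates 1 and 2. In the series-level list the other central parts had medians of 224 to 248.5 bp and 3.68 to 5.85% wide peaks, all below the members. In replicates 1 and 2 their medians were 224 to 253 bp and 194 to 222.5 bp, ranges that include those of the span. Their shares of wide peaks there were 4.12 to 5.79% and 1.08 to 2.47%.

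Width and score followed the support class. Members found in both replicates had a median width of 406 bp and a median score of 24.8. Those found in replicate 1 only had medians of 233 bp and 9.95, those in replicate 2 only 180 bp and 6.44, and those in neither 161 bp and 4.78. The whole list had the same order of classes, with medians of 394 bp and 27.5 for peaks found in both. Its other classes had 227 bp and 10.6, 185 bp and 6.23, and 161 bp and 4.93, in the order above. The classes overlap widely below 300 bp, but all members of at least 1 kb belonged to the first class (51) or to the second (4). Over the whole list 1493 such peaks were in the first class, 92 in the second and 3 in replicate 2 only. Of the 106 members in neither list, 95 were narrower than 200 bp (89.6%, against 84.9% over the whole list) and the widest was 300 bp. None of them, and none of the 56 in replicate 2 only, reached the top score quartile. The same held for these classes over the whole list. A wide peak meets an overlap rule of 1 bp more easily, and the score comes from the same reads as the overlap, so these differences are a description of the classes and no test was made.

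**Figure D3:**
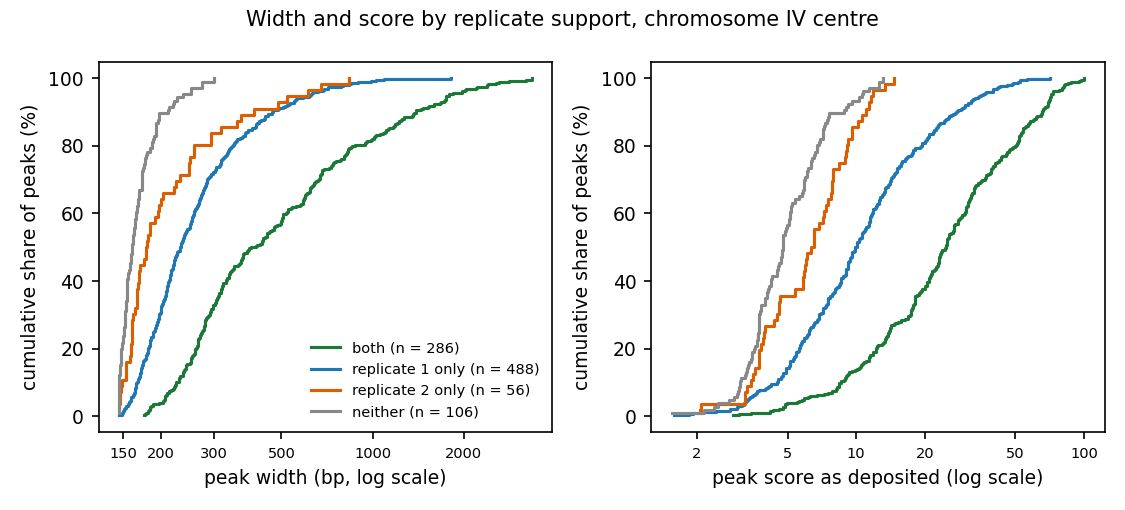
Cumulative share of the 936 members, in percent, by peak width in bp (left) and by deposited score (right), both on log scales, with 1 line for each support class. The line of peaks found in both replicate lists lies to the right (medians 406 bp and 24.8) and that of peaks in neither list to the left (161 bp and 4.78).

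Members found in both replicates mostly overlapped 1 peak of each. Of the 286 members found in both, 243 (85.0%) overlapped exactly 1 peak of each replicate. Their midpoint differed from that of the replicate 1 peak by a median of 6.5 bp and from that of the replicate 2 peak by 32 bp. Small offsets are partly built in, as each replicate peak had to overlap the member. When the overlap had to reach 50% of both lengths, the share of all members found in both was 19.8%. The replicate 2 peak was narrower than the replicate 1 peak in 182 of the 243 (74.9%), with medians of 227 and 313 bp. In the remaining members the lists divided the site differently, with 31 members covering at least 2 replicate 2 peaks (at most 6) and 21 covering at least 2 replicate 1 peaks (at most 3).

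The widest members were broad sites that both replicates found. The widest ran from 12022102 to 12025451 (3350 bp) and overlapped a single peak of 3310 bp in replicate 1 and a single peak of 3142 bp in replicate 2. It was also isolated, with 5.45 kb to the next series-level peak. The second, from 13392858 to 13396057 (3200 bp), matched 1 replicate 1 peak of 3186 bp, but in replicate 2 it was divided into 4 peaks that covered 1530 bp of it. The third, from 11522230 to 11525052 (2823 bp), held 3 replicate 1 peaks covering 2654 bp and 6 replicate 2 peaks covering 1451 bp. These sites show the same difference between the lists: replicate 1 called nearly the whole width, and replicate 2 called the whole of some sites and pieces of others. The fourth, from 7144919 to 7147540 (2622 bp), had a single peak in each list, of 2592 bp and 1968 bp. The fifth, from 11080771 to 11083326 (2556 bp), had 2485 bp in replicate 1 peaks and 318 bp in replicate 2 peaks. Among members without a replicate 2 peak, the widest ran from 13035942 to 13037755 (1814 bp, 2 peaks in replicate 1) and was singled out after its width was seen.

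The highest-scoring members found in both replicates were mostly wide and mostly grouped. The 10 of them had scores from 79.75 to 100.16, while 161 peaks elsewhere in the genome scored above the first of them. Of the 10, 7 were at least 1 kb wide, 9 had a neighbour within 1 kb and 5 lay in the last 500 kb of the span. The first ran from 9196238 to 9197437 (1200 bp), where replicate 1 had 2 peaks covering 1105 bp and replicate 2 had 2 covering 612 bp. The second, from 9410242 to 9412032 (1791 bp), stood alone, 5.83 kb from its left and 21.8 kb from its right neighbour, with 1 peak of 1665 bp in replicate 1 and 1 of 1456 bp in replicate 2.

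The third and the seventh, from 13462267 to 13463452 (1186 bp) and from 13464332 to 13464994 (663 bp), lay close together near the right bound. The fourth is the member of 3200 bp named above. The fifth, from 13430176 to 13430572, was the narrowest of the 10, at 397 bp. The sixth ran from 8469509 to 8471350 (1842 bp), the eighth from 9066045 to 9068084 (2040 bp), the ninth from 13366667 to 13368339 (1673 bp) and the tenth from 11199836 to 11200291 (456 bp). In the eighth, the replicate 2 peak had 2025 bp and replicate 1 had 2 peaks covering 1966 bp, so the site was found at nearly full width in both. In the ninth, a replicate 1 peak of 1644 bp faced a replicate 2 peak of 448 bp.

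High scores without replicate 2 also occurred. The highest-scoring member found in replicate 1 only ran from 12617955 to 12618396 (442 bp, score 71.18, the 18th highest of all members). It was followed by peaks from 10342406 to 10342710 (score 56.16) and from 8252907 to 8253166 (score 54.65). These 3 were picked out once their scores were known. In all, 47 of the 170 members of the top score quartile were found in replicate 1 only, against 805 of 5883 peaks over the whole list.

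Most members had a close neighbour. The gap to the nearest series-level peak had a median of 431 bp, against 333 bp over the whole list. A neighbour within 1 kb was found for 626 members (66.9%), against 73.1% of all peaks, 80.8% left of the span and 69.3% right of it. The central parts of the other chromosomes, placed unlike this span, had 45.6 to 65.0%, all below the chromosome IV centre. In the lists of single replicates the share was 65.3% in replicate 1 and 49.2% in replicate 2. A neighbour within 200 bp was found for 273 members (29.2%), against 37.1% of all peaks, 44.9% left of the span and 34.5% right of it. The other central parts had 20.1 to 32.6%.

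Isolated members, with no other series-level peak within 5 kb, numbered 114 (12.2%), against 7.06% of all peaks. The share was 3.57% left of the span and 10.7% right of it, so the centre differed mainly from the left. Replicate 1 alone gave 15.0% for the span and 8.37% for its whole list, and replicate 2 alone gave 27.8% and 10.9%. In each list the share was thus higher in the span than over the list. The difference of 12.2% from 7.06% is smaller than the spread between the replicate values for the span (SD 9.06 percentage points, n = 2). That SD is the spread of the level in lists with 822 and 486 peaks there, and does not measure the spread of the difference. Among central parts, the share was 12.0% on III, 12.9% on V, 13.3% on I, 16.4% on II and 23.0% on X, so only chromosome III had a lower share than the chromosome IV centre. Isolation followed density within the span too, with 72 isolated peaks of 430 (16.7%) in the first 4 Mb, 42 of 506 (8.30%) in the last 2.5 Mb and 3 of 154 in the last 500 kb.

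**Figure D4:**
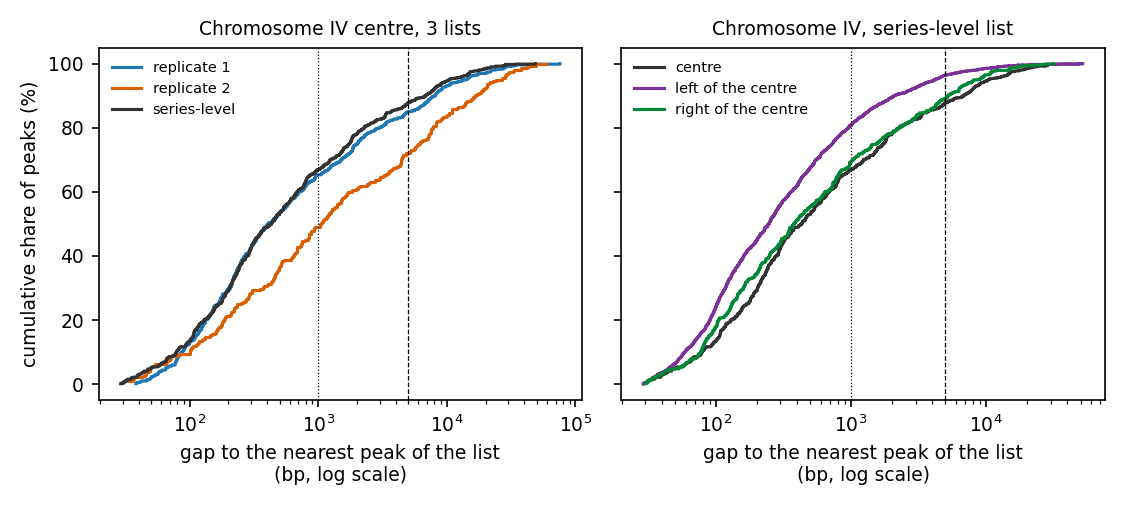
Cumulative share of peaks, in percent, by the gap to the nearest peak of the same list (bp, log scale), for the chromosome IV centre in the 3 lists (left) and for 3 portions of chromosome IV in the series-level list (right); the dotted line marks 1 kb and the dashed line 5 kb. At 5 kb the series-level and replicate 1 lines of the centre stand at 87.8% and 85.0% and the replicate 2 line at 72.2%, while the line left of the centre stands at 96.4%.

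The support of isolated members could not be told from that of grouped ones. Both replicates had a peak at 35 of the 114 isolated members (30.7%, interval 23.0 to 39.7%), at 47 of the 196 with a gap of 1 to 5 kb (24.0%, 18.5 to 30.4%) and at 204 of the 626 with a neighbour within 1 kb (32.6%, 29.0 to 36.4%). The intervals overlap. The isolated members were narrower, with a median of 211 bp against 267 bp for those with a neighbour within 1 kb, and their median scores were 11.7 and 10.6. Of the 55 members of at least 1 kb, 47 had a neighbour within 1 kb and 2 were isolated. Among members found in both replicates, the isolated 35 had a median width of 311 bp and the 204 grouped ones 499 bp.

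The most isolated members found in both replicates were single, narrow peaks in wide empty stretches. The first, from 12928482 to 12928711 (230 bp), had its nearest series-level neighbours 34.4 kb to the left and 67.8 kb to the right. It had 1 peak of 166 bp in replicate 1 and 1 of 268 bp in replicate 2. The second, from 10129032 to 10129322 (291 bp), stood 28.4 kb and 45.9 kb from its neighbours, with peaks of 276 bp and 163 bp in replicates 1 and 2. The third, from 10658325 to 10658710 (386 bp), bounds the empty stretch of 104.1 kb described above and stood 28.1 kb from its right neighbour. Its replicate peaks were 389 bp and 251 bp wide. The fourth (8302053 to 8302304, 252 bp) and the fifth (11616628 to 11616949, 322 bp) both had a score of 4.86, in the bottom quartile of the list, although both replicates had a peak there. The most isolated member of any class, from 9613224 to 9613474 with 48.9 kb to its nearest neighbour, was found in replicate 1 only and was singled out after its gap was seen.

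Joining peaks over gaps of up to 1 kb turned the members into 498 groups. A single peak made up 310 of them (62.2%), against 58.9% over the whole list and 55.5% on chromosome IV. Another 152 groups held 2 to 4 peaks, and 36 held 5 or more. Those 36 contained 245 members, or 26.2%, against 37.1% over the whole list. The largest number in a group was 14, against 43 over the whole list and 35 on chromosome IV. Groups of at least 5 kb numbered 11, of 99 on the whole chromosome. Groups usually mixed the support classes: of the 36 groups of 5 or more peaks, 33 held at least 1 member found in both replicates, and 1 consisted of such members alone. Of the 310 single peaks, 82 (26.5%) were found in both.

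The 5 widest groups had the same make-up, with replicate 1 following the series-level list and replicate 2 calling pieces. The widest ran from 10499821 to 10512978 (13.2 kb) and held 14 members that filled 72.9% of it, 5 found in both replicates and 9 in replicate 1 only. Replicate 1 had 16 peaks over 68.6% of its length, and replicate 2 had 9 peaks over 17.1%. The group from 12814396 to 12825296 (10.9 kb) also held 14 members, with 53.3% of its length in replicate 1 peaks and 12.1% in replicate 2 peaks. The group from 12419800 to 12429996 (10.2 kb) held 12 members, with 38.0% and 12.3%. The group from 8066522 to 8074265 (7.74 kb) had the most even support, with 7 of 10 members found in both and 56.1% and 31.3% of its length in the replicate peaks. The group from 9668881 to 9676259 (7.38 kb) had the least, with 1 of 8 members found in both, 54.8% of its length in replicate 1 peaks and 2.09% in a single replicate 2 peak. In all 5 groups replicate 2 covered a smaller part than replicate 1.

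**Figure D5:**
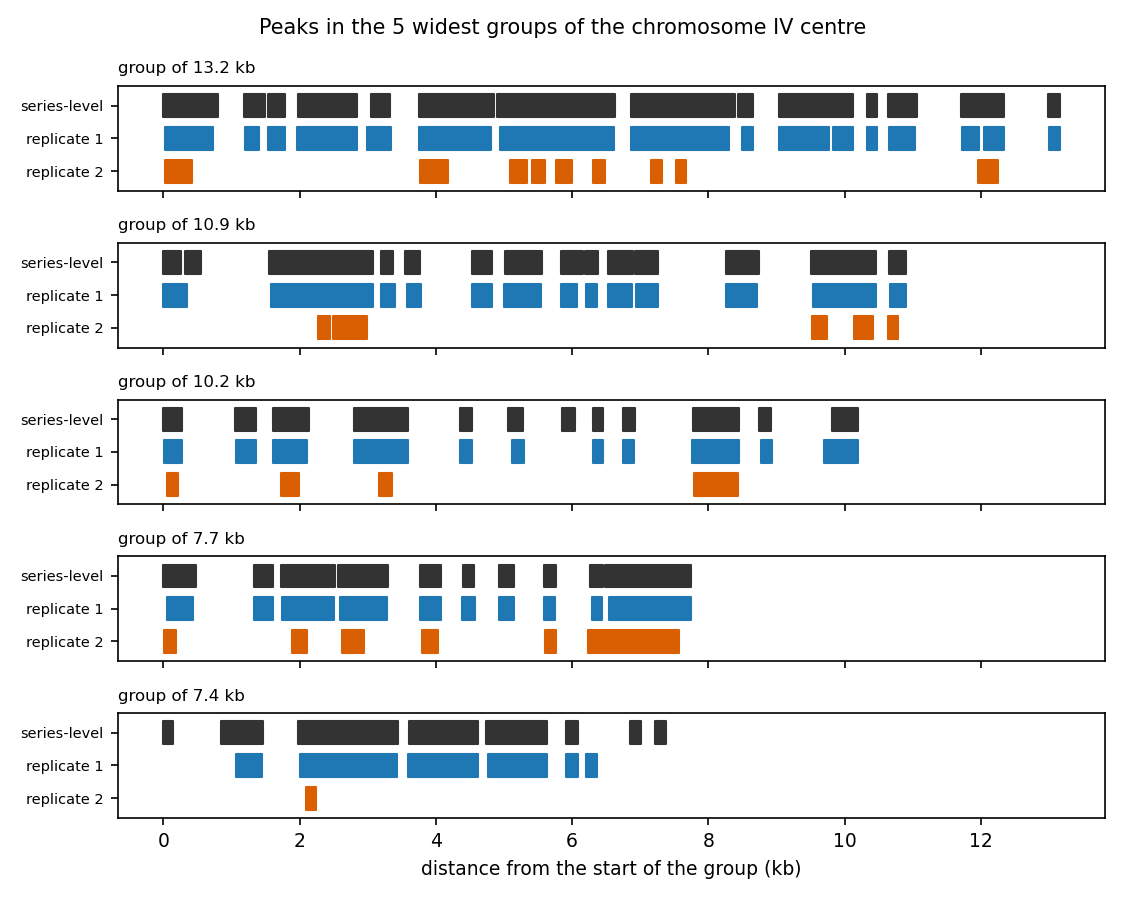
Peaks of the series-level list and of both replicate lists in the 5 widest groups of the chromosome IV centre, drawn to scale as bars against the distance from the start of the group in kb. Replicate 1 fills 38.0 to 68.6% of each group and replicate 2 2.09 to 31.3%.

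Some replicate peaks of the span were left out of the series-level list. Of the 822 replicate 1 peaks, 26 (median width 157 bp) overlapped no series-level peak. Thus 96.8% were in the series-level list, against 98.3% of the whole replicate 1 list. All 26 scored below the median of the replicate 1 peaks in the span. Over the whole replicate 1 list, 99.4% of the peaks left out scored below its median. Of the 486 replicate 2 peaks, 102 overlapped none, so that 79.0% were in the series-level list, against 85.6% of the whole replicate 2 list. Of these 102, 83 (81.4%) scored below the median of the replicate 2 peaks in the span, against 87.1% over the whole replicate 2 list and its median. The highest-scoring of them ran from 10945645 to 10946228 (584 bp), and replicate 1 had no peak there. The sources used here do not say how the series-level list was made from the replicates.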

How the data were processed

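ChIP-seq peak lists for HPL-2 in L3 larvae were used, 1 for each of 2 ChIP replicates and 1 for the series. Per the submitters' processing notes, BWA and the build ce10 were used; per the file headers, coordinates are on WormBase WS220 and peaks were called with MACS. The sources used here do not give its version, threshold or control. The deposited score of each peak has no stated scale and served only for ranks within a list. The depth behind each peak is unknown.

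Positions were used as deposited, counted from 1. Peaks counted as found in a replicate when they overlapped by at least 1 bp. Gaps run from the end of a peak to the start of the next. Other chromosomes were divided into 3 equal parts. Chromosome lengths were the largest end over the 3 lists. Shares have Wilson 95% intervals (scipy 1.17.1, Python 3.11.15). The code was tested on simulated lists. Samples were grouped by title. Named regions followed a rule: the 10 highest-scoring and 5 most isolated members found in both replicates, the 5 widest members and groups, the 3 fullest and 3 emptiest windows of 100 kb, the 3 longest empty stretches, and the peaks at the bounds. The members, lists and rules were chosen with earlier results of these data known. Gene positions and sequences were not analysed here.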

Additional observations from a re-analysis of the deposited data

How the results depend on the processing

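Of 26 alternatives over 4 results, 15 left the value within the replicate SD or the Wilson interval, 11 moved it and none changed the direction of the density ratio. Keeping only members wholly within the span could not move the support share or the median width, as no member crossed a bound. The SD used to judge the single replicate lists came from those same lists. The share of members found in both replicates (30.6%) was 19.8% when the overlap had to reach 50% of both lengths and 57.0% for members scoring at or above the list median; it changed less with replicate peaks merged, or without the last 500 kb (29.4%), a setting chosen after seeing the data. The median width (251 bp) was 318 bp at scores at or above the median, 317 bp for merged peaks, and 211 to 250 bp with a single replicate list. The isolated share (12.2%) was 21.9% at a gap of 2 kb and 5.45% at 10 kb. The value at 10 kb counts as not moved because the replicate SD allows 3.12 to 21.2%, a wide range. The share was 31.6% among peaks scoring at or above the median and 40.2% among peaks found in both replicates. In both settings neighbours were counted within the same subset only. With all series-level peaks as neighbours, 12.2% of the members found in both replicates were isolated. With a single replicate list the isolated share was 15.0 to 27.8%. The log2 density ratio (-0.97) was -1.55 for peaks found in both replicates, where the cause was not tested, and -1.49 to -0.97 with a single list. Neither replicate can be left out of the support share. The 5 alternatives on gene overlap were not run, as no annotation on WS220 was at hand. No paired analysis was possible because values of the inputs, whose replicate numbers match those of the ChIPs, were not analysed here. Unknown depth and threshold limit every result.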

Other observations

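Replicate 2 had more peaks than replicate 1 in 8 of the 65 windows of 100 kb, although it had fewer in the span as a whole. The window from 8400001 to 8500000 held 18 replicate 2 peaks, 11 replicate 1 peaks and 11 series-level peaks, of which 8 were found in both replicates. The window from 9500001 to 9600000 held 9, 3 and 4 in the same order. Inside it, from 9553567 to 9555446, lay the longest run of replicate 2 peaks absent from both other lists, 4 peaks over 1.88 kb. The nearest replicate 1 peak was 8202 bp away. The nearest series-level peak was 139 bp away, and was itself found in replicate 2 only. Another 2 replicate 2 peaks absent from both other lists, covering 1333 bp from 9046951 to 9048688, stood 9.32 kb from the nearest series-level peak. All of these were chosen with their values known, and no test was made.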
